A study of Mus musculus with 6 samples.

Results

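Upk3b, Msln, Wt1 and Tbx18 are 4 genes of the mesothelium and epicardium, and their levels in 3 heart samples from sham-operated wild-type mice are described here. Among 17447 genes in the count table, the 4 were chosen by their spread between these same sham hearts, Upk3b and Msln for a wide one, with Wt1 and Tbx18 to set beside them. Their levels and spread are therefore given as a description, with no test. The study set 3 heart samples from wild-type mice with chronic kidney disease (CKD) beside 3 from wild-type mice after a sham operation. In the CKD group most of one kidney and then the whole other kidney were removed, and in the sham group the kidneys were exposed under the same anaesthesia without removal of tissue. All 6 libraries carry the same batch label. The age and sex of the mice, the time after surgery and the parts of the heart that were taken are not stated in the labels. Nothing beyond the replicate numbers says that the samples are separate animals, so the spread between them may in part be technical. Below, each sham sample is called a heart.

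The mesothelium is a thin epithelial sheet that lines the body cavities, and the layer of it that covers the heart is the epicardium. Mesothelial cells carry keratins and a surface coat of glycoproteins. In the embryo the epicardium also sends cells into the heart wall that become fibroblasts and vascular mural cells. Upk3b encodes a uroplakin, a membrane protein of the apical surface, and Msln encodes mesothelin, a surface glycoprotein anchored in the membrane through a lipid. Wt1 is a zinc finger transcription factor needed for the formation of the epicardium. Tbx18 is a T-box transcription factor of the epicardium and of the sinus node region, and in adult tissue it also marks pericytes and vascular smooth muscle cells.

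The row labels were checked first. Over all rows, rank correlation (Spearman) reached 0.984 to 0.987 between CKD columns and 0.982 to 0.985 between sham columns, but -0.0586 to -0.0528 for the 9 combinations of a CKD with a sham column. These values are across genes, and genes are no independent replicates. The 12 ventricular cardiomyocyte markers took 0.203% to 0.230% of the counts in the CKD columns and 13.2% to 14.6% in the sham columns. The row of Ttn, the giant spring protein of the sarcomere, held 701, 605 and 622 counts in the CKD columns and 41203, 53880 and 63622 in the sham columns. The CKD values thus did not correspond to the symbols beside them, and no CKD value is read as the level of a gene. Under the 4 member symbols the CKD columns held 27, 23 and 31 counts for Upk3b, 2, 2 and 1 for Msln, 0 in each for Wt1, and 109, 123 and 144 for Tbx18, which are left unused. All levels below are counts scaled to 1000000 per column (CPM) in the sham hearts, whose totals were 10480788, 10474487 and 12669724 counts. Intervals are exact 95% intervals and cover counting error only.

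The members differed in how they varied. Upk3b and Msln were nearly missing from sham 2, with 1 count each, while Wt1 and Tbx18 had 47 and 69 counts in that heart. The RefSeq table of assembly GRCm38.p6 held the start region of Upk3b and of Tbx18, from 250 bases before the start to 50 after it, and both are shown because these genes lie at opposite ends of the contrast in sham 2. The Upk3b region lies on the plus strand at chr5:136038246-136038545 and the Tbx18 region on the minus strand at chr9:87731211-87731510. Capitals mark CG dinucleotides.
Upk3b: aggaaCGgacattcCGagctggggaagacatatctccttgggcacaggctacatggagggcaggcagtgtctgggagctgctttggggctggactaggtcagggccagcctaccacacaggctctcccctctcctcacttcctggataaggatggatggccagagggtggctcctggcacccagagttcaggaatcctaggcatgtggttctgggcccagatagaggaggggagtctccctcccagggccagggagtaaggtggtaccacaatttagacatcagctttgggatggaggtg
Tbx18: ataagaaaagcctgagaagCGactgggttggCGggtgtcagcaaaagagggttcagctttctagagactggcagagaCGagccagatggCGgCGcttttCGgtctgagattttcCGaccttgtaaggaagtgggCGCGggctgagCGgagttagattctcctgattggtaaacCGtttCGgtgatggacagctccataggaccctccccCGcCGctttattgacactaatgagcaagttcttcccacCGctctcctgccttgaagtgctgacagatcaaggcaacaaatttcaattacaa
The Upk3b region held 2 CG dinucleotides and the Tbx18 region 15. As few or fewer were found in 23.3% of all 32851 such regions for the Upk3b value and in 67.0% for the Tbx18 value. Motifs were searched on both strands. Upk3b held GATAA, the core of GATA factor sites, at position -106 from the start (in 25.4% of all regions) and CATTCC, the core of TEAD factor sites, at position -241 (in 14.7%). Tbx18 held CCAAT on its opposite strand at position -87 (in 37.4%). Each also held an E-box, CANNTG, at position -49 in Upk3b and -168 in Tbx18 (in 72.3%). TATAAA and the T-box half-site GTGTGA, present in 13.6% and 14.5% of all regions, were not in either window. These matches describe letters and are not shown to be sites in use.

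Upk3b gave 92, 1 and 34 counts in sham 1, 2 and 3. Its level was 8.78 CPM in sham 1 (7.08 to 10.8), 0.0955 CPM in sham 2 (0.00242 to 0.532) and 2.68 CPM in sham 3 (1.86 to 3.75), a mean of 3.85 ± 4.46 CPM (SD, n = 3). Sham 1 was highest and sham 2 lowest, and no interval overlapped another. The highest heart stood 91.9-fold above the lowest (16.1 to 3671), and the wide interval comes from the single count in sham 2. Without sham 2 the ratio of sham 1 to sham 3 was 3.27 (2.19 to 5.00).

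Msln gave 46, 1 and 23 counts. Its level was 4.39 CPM in sham 1 (3.21 to 5.85), 0.0955 CPM in sham 2 (0.00242 to 0.532) and 1.82 CPM in sham 3 (1.15 to 2.72), a mean of 2.10 ± 2.16 CPM (SD, n = 3). The order of the hearts was that of Upk3b, again with no overlap of the intervals. Msln was 46.0-fold higher in sham 1 than in sham 2 (7.85 to 1855), and the ratio of sham 1 to sham 3 was 2.42 without sham 2 (1.44 to 4.18).

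The ratio of Upk3b and Msln could be compared only between sham 1 and sham 3. Of their joint counts, Msln made up 33.3% in sham 1 (46 of 138, Clopper-Pearson 25.5 to 41.9) and 40.4% in sham 3 (23 of 57, 27.6 to 54.2). These shares could not be told apart at this depth, which does not show that the ratio was constant. In sham 2 the joint count was 2, so the share there, with an interval of 1.26% to 98.7%, says nothing about the ratio.

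Wt1 gave 62, 47 and 68 counts. Its level was 5.92 CPM in sham 1 (4.54 to 7.58), 4.49 CPM in sham 2 (3.30 to 5.97) and 5.37 CPM in sham 3 (4.17 to 6.80), a mean of 5.26 ± 0.721 CPM (SD, n = 3). All 3 intervals overlapped, and the ratio of the highest to the lowest heart was 1.32 with an interval of 0.888 to 1.97 that includes no difference. The 3 hearts could not be put in an order for Wt1 at this depth. Counted against the summed fibroblast markers of the same heart in place of the column total, sham 2 became the highest heart for Wt1, with a highest-to-lowest ratio of 1.54.

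Tbx18 gave 79, 69 and 41 counts. Its level was 7.54 CPM in sham 1 (5.97 to 9.39), 6.59 CPM in sham 2 (5.13 to 8.34) and 3.24 CPM in sham 3 (2.32 to 4.39), a mean of 5.79 ± 2.26 CPM (SD, n = 3). Sham 1 and sham 2 overlapped, and sham 3 lay below both without overlap. The ratio of sham 1 to sham 3 was 2.33 (1.58 to 3.48), and without sham 3 the ratio of the remaining hearts was 1.14. Counted against the fibroblast sum, sham 2 became the highest heart and the highest-to-lowest ratio was 3.74. Of the joint counts of Wt1 and Tbx18, Tbx18 made up 56.0% in sham 1 (79 of 141, 47.4 to 64.4), 59.5% in sham 2 (69 of 116, 50.0 to 68.5) and 37.6% in sham 3 (41 of 109, 28.5 to 47.4). The interval of sham 3 lay below that of sham 2 and ended where that of sham 1 began, at 47.4%. In the GENCODE M21 annotation an exon of Tbx18 overlaps an opposite-strand transcript, D030062O11Rik, and whether strand was used in counting is not stated, so reads of that transcript cannot be told apart from those of Tbx18.

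**Figure D1:**
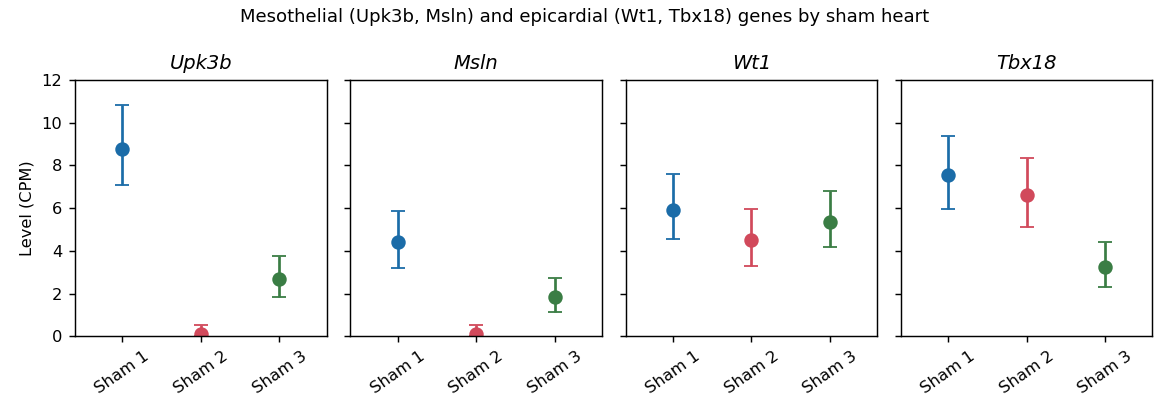
Level of Upk3b, Msln, Wt1 and Tbx18 in CPM (vertical axis, linear) in each of the 3 sham hearts (horizontal axis). Points are single hearts and bars are exact 95% Poisson intervals for counting error; Upk3b and Msln sit at 0.0955 CPM in sham 2, while Wt1 and Tbx18 are at 4.49 and 6.59 CPM there and Tbx18 is lowest in sham 3 at 3.24 CPM.

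Taken as a group of 4, Upk3b and Msln supplied 49.5% of the member counts in sham 1 (138 of 279, 43.4 to 55.5), 1.69% in sham 2 (2 of 118, 0.206 to 5.99) and 34.3% in sham 3 (57 of 166, 27.2 to 42.1). The sham 2 column held 10474487 counts in all and the sham 1 column 10480788. In whole tissue, fewer mesothelial cells and less RNA of these genes per cell cannot be told apart. The spread was also set beside that of genes with a mean level within 1.5-fold of each member, as the log2 range of CPM + 0.5 over the hearts. It was 3.96 for Upk3b, a range reached by 1 of 1300 genes of like level (0.0769%), and 3.04 for Msln, reached by 6 of 969 (0.619%). For Tbx18 it was 1.11, reached by 192 of 1623 (11.8%), and for Wt1 0.36, reached by 1088 of 1557 (69.9%). The median range of genes of like level was 0.59, 0.75, 0.52 and 0.53 for Upk3b, Msln, Tbx18 and Wt1. Since the members were picked for this spread, these ranks describe the choice and support nothing further.

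Other surface and keratin genes of mesothelium were set beside Upk3b and Msln. Of 22 genes listed, 20 were in the table and all 20 had a count in at least 1 sham heart. Sham 2 was the lowest heart for 16 of them, against 45.5% of the 15889 genes with a sham count. For 10 of the 20, sham 2 was at least 5-fold below both other hearts when a count of 0 was taken as it stands, against 4.09% of those 15889 genes. Sham 2 was then counted as at least 3 counts, the limit that a count of 0 allows. The gap was left for 2 of the 20, Krt18 and Anxa8, against 0.447% of the 15889. For the other 8 of the 10 a 5-fold gap to both hearts was not resolved at this depth. Nor was it for Anxa8, which had 1 count in sham 2. Its ratio intervals began at 4.81 for sham 1 over sham 2 and at 2.79 for sham 3 over sham 2. The median share of a gene's 3-heart CPM that lay in sham 2 was 1.06% over the 20 genes and 31.2% over the 15889. An equal share is 33.3%. Over all genes averaging 0.1 to 5 CPM, the level of 16 of the 20, the median share was 25.7%. The gap was more frequent among weakly expressed genes. In the range of 0.1 to 5 CPM on average, 10 of the 16 listed genes and 11.0% of all 4218 genes had it as counted, and 2 of the 16 and 1.07% of the 4218 had it with the limit of 3 counts. The 10 were Upk1b, Krt7, Krt8, Krt18, Krt19, Lrrn4, Muc16, Cdh3, Anxa8 and Slpi. Upk3b and Msln, which were chosen for their spread, had the gap under both ways of counting, and Wt1 and Tbx18 under neither. Upk3b and Msln had 1 count each in sham 2, and the exact interval of 1 count reached 5.57 counts, above the limit of 3.

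The keratins that form the intermediate filaments of simple epithelia were at 0 counts in sham 2 throughout. Krt7 gave 27, 0 and 6 counts in sham 1, 2 and 3, Krt8 gave 18, 0 and 7, Krt18 gave 21, 0 and 31, and Krt19 gave 14, 0 and 13. Summed, they gave 80, 0 and 57 counts, or 7.63 CPM in sham 1 and 4.50 CPM in sham 3. Here 3 counts, or 0.286 CPM, stood for the sum of 0 in sham 2. The summed keratins were 26.7-fold above that value in sham 1 and 15.7-fold above it in sham 3. Both folds leave out the counting error of sham 1 and sham 3, so they are not lower bounds. Krt18 stood at 2.00 CPM in sham 1 and 2.45 CPM in sham 3, without the gap between these hearts that Upk3b and Msln had.

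Partners of the members at the cell surface were also at 0 or 1 count in sham 2. Upk1b, the tetraspanin with which uroplakins of the Upk3 type pair, gave 22, 1 and 8 counts, and sham 1 stood 21.99-fold above sham 2 (3.55 to 907). Between sham 3 and sham 2 the ratio of Upk1b was 6.61 with an interval of 0.887 to 293, so that step was not detectable at this depth. Muc16, the membrane mucin that binds mesothelin, gave 14, 0 and 10 counts. Lrrn4, a leucine-rich repeat membrane protein used as a mesothelial marker, gave 31, 0 and 14 counts. Its sham 1 level was 10.3-fold above that of 3 counts in sham 2, with the counting error of sham 1 left out. Anxa8, an annexin, gave 29, 1 and 21 counts, 29.0-fold higher in sham 1 than in sham 2 (4.81 to 1184).

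Further genes of the list were named after their values were seen. Gpm6a, a membrane glycoprotein, gave 81, 17 and 45 counts, with sham 1 4.76-fold above sham 2 (2.80 to 8.57). Pdpn, podoplanin, a mucin-like protein of mesothelium and lymphatic vessels, gave 83, 41 and 87 counts, with sham 1 2.02-fold above sham 2 (1.38 to 3.02). Podxl, the podocalyxin of endothelium and podocytes, gave 2824, 3033 and 4082 counts, and Ezr, a linker of membrane and actin, gave 851, 784 and 1121. The list summed to 393, 374 and 435 CPM in sham 1, 2 and 3, mostly through Podxl and Ezr. Without these, a trimming made after the values were seen, it summed to 42.6, 9.36 and 24.2 CPM. Cldn15, a tight junction protein, gave 50, 30 and 24 counts and was lowest in sham 3, as Tbx18 was.

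Uroplakins other than Upk3b and Upk1b, and relatives of mesothelin, were hardly present. Of 7 such genes listed, 4 had any sham count and 0 averaged at least 1 CPM. Upk1a, a uroplakin of the bladder lining, gave 2, 0 and 9 counts, and Upk3a and Upk3bl gave 0 in each heart, so a level of up to 0.286 CPM could go unseen in sham 2. Reads shared between Upk3b and its copy Upk3bl, if any, did not appear under the Upk3bl label in the sham columns.

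The transcription factors and signals of the epicardium were set beside Wt1 and Tbx18. All 18 listed genes averaged at least 1 CPM. Sham 2 was lowest for 11 of 18 (48.8% of the 12491 genes at this level), and 1 of 18 was at least 5-fold lower in sham 2 than in both other hearts as counted (0.729% of genes). With sham 2 counted as at least 3 counts, 0 of 18 had this gap (0.568% of genes). The median share of CPM in sham 2 was 28.7% over the 18 genes and 31.8% over the 12491. The gene with the gap as counted was Gata5, a zinc finger factor of the epicardium and endocardium, with 24, 0 and 18 counts. Its sham 3 level was 4.96-fold above that of 3 counts in sham 2, with the counting error of sham 3 left out. The list summed to 686, 597 and 612 CPM in sham 1, 2 and 3, led by Gata4 at 163 ± 6.27 CPM and Tbx20 at 125 ± 16.8 CPM (SD, n = 3 each), which cardiomyocytes also express.

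Other genes of this list were also named after their values were seen, and they do not stand for the whole list. Tcf21, a factor of epicardium and cardiac fibroblasts, gave 106, 66 and 115 counts, with sham 1 1.61-fold above sham 2 (1.17 to 2.22). Scx, a factor of tendon and valve progenitors, gave 124, 42 and 116 counts, a ratio of 2.95 (2.06 to 4.29). Sema3d, a guidance ligand of the embryonic epicardium, gave 62, 20 and 70 counts, a ratio of 3.10 (1.85 to 5.42). Aldh1a2, the retinoic acid synthesizing enzyme of the epicardium and known as a target of Wt1, went the other way. It gave 37, 92 and 54 counts, so that sham 1 stood at 0.402 of the sham 2 level (0.267 to 0.595) and sham 3 at 0.485 of it (0.340 to 0.686). Among the 18 genes, sham 2 was highest for Aldh1a2, Fgf9 and Tgfbr3. Sham 3 was lowest for 4 of the 18, Tbx20 among them, as it was for Tbx18. No share over all genes was taken for this.

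Among genes tied to Wt1, 12 of 13 in the table had a sham count and 10 averaged at least 1 CPM. Wtap, a Wt1-binding protein of the RNA methylation complex, gave 409, 364 and 476 counts, and Spry1, a receptor tyrosine kinase antagonist, gave 441, 306 and 374. Of the 10, 0 were at least 5-fold lower in sham 2 than in both other hearts (0.729% of genes at this level). In the T-box family, 11 of 15 genes were in the table and 6 averaged at least 1 CPM. By CPM alone all 6 were highest in sham 1, as Tbx18 was, against 37.0% of genes at this level. No intervals were taken for the 6, and those of Tbx18 overlapped between sham 1 and sham 2. Tbx5, a factor of atria and conduction tissue, gave 707, 411 and 443 counts, Tbx3, of the conduction system, 305, 215 and 339, and Tbx2, of non-chamber myocardium, 126, 77 and 130. Tbx15, the relative closest to Tbx18 among those listed, gave 18, 7 and 17 counts.

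**Figure D2:**
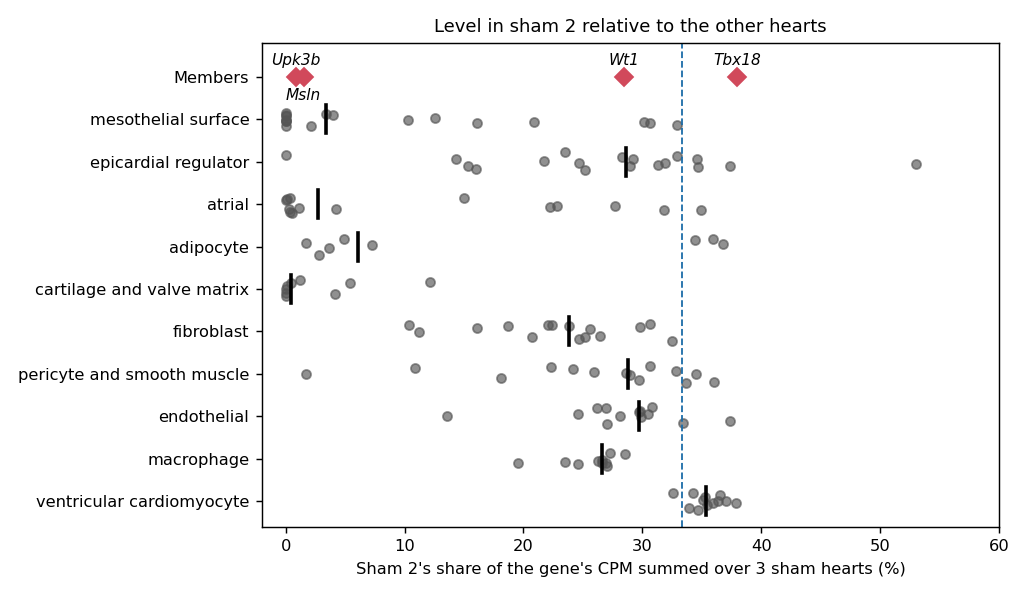
Share of each gene's CPM, summed over the 3 sham hearts, that sham 2 holds (horizontal axis, percent), for the 4 members (diamonds) and for listed marker genes with at least 10 sham counts (points, with vertical jitter; bars are medians). The dashed line marks 33.3%, an equal share. The median is 3.38% for 17 mesothelial surface genes, 28.7% for 18 epicardial regulators and 35.3% for 12 ventricular cardiomyocyte markers. Low medians are not particular to the mesothelial list: they are 2.68% for atrial, 6.07% for adipocyte and 0.437% for cartilage and valve matrix genes.

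Markers of other tissue parts moved with the hearts too, and their part in the pattern of Upk3b and Msln was not tested. The atrial list without Nppa summed to 2116, 576 and 786 CPM in sham 1, 2 and 3, and 11 of its 13 genes were highest in sham 1 (37.5% of all genes with a sham count). Its defining light chain Myl7 gave 5207, 15 and 1032 counts, the same order of hearts as Upk3b. With sham 2 counted as at least 3 counts, 5 of the 13 atrial genes were at least 5-fold lower there than in both other hearts. Of all genes with a sham count, 0.447% had this gap. The adipocyte list of 10 genes summed to 596, 658 and 611 CPM. With sham 2 counted as at least 3 counts, 4 of the 10 were at least 5-fold lower there than in both other hearts (0.447% of genes with a sham count). Among them was Adipoq, the fat cell hormone adiponectin, with 30, 2 and 27 counts. Its ratio intervals against sham 2 began at 3.80 for sham 1 and 2.80 for sham 3, so 5-fold was not resolved for Adipoq. Without Fabp4, Pparg and Cidea, a trimming made after the values were seen, the list summed to 19.1, 1.34 and 18.2 CPM. The cartilage and valve matrix list summed to 144, 12.1 and 263 CPM. Of its 11 genes, 6 were at least 5-fold lower in sham 2, counted as at least 3 counts, than in both other hearts (0.447% of genes with a sham count). Comp, a matrix protein of cartilage and tendon, gave 342, 4 and 689 counts.

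Lists of the stroma, the vessel wall and the muscle were summed in the same way. Fibroblast markers summed to 4391, 2649 and 4869 CPM in sham 1, 2 and 3. Of these 15 genes, 0 were at least 5-fold lower in sham 2 than in both other hearts (0.729% of genes averaging at least 1 CPM). In 1 of 14 pericyte and smooth muscle markers, Cnn1 of smooth muscle with 52, 3 and 143 counts, sham 2 was at least 5-fold lower (again 0.729% of genes). These markers, among which Tbx18 is known to be expressed, summed to 4613, 4655 and 4763 CPM. Most of that sum was Des, the desmin of all muscle including cardiomyocytes, with 2836, 2868 and 2617 CPM, and without Des, left out after the values were seen, it was 1777, 1786 and 2147 CPM. Sham 2 was the lowest heart for 10 of the 14, against 48.8% of genes averaging at least 1 CPM. Among the 10 were the contractile genes Tagln, with 501, 171 and 1085 counts, and Myh11, with 698, 479 and 1774. Endothelial markers summed to 2038, 1829 and 2256 CPM, and ventricular cardiomyocyte markers to 132126, 146231 and 131733 CPM. Immediate early genes, which respond within minutes to stress, summed to 848, 304 and 366 CPM. Sham 3, the heart lowest in Tbx18, held 1160 CPM of interferon response genes, against 202 and 141 CPM in sham 1 and 2, and 488 CPM of blood genes, against 111 and 83.4 CPM. Macrophage markers summed to 597, 475 and 768 CPM. The part of these lists in the member values was not tested. Of 7 lung and airway epithelial markers in the table, 6 were at 0 in every sham heart, and Ager gave 0, 3 and 2 counts. Relative to the pericyte and smooth muscle sum with Des, the highest-to-lowest ratio was 92.8 for Upk3b, 46.4 for Msln, 1.33 for Wt1 and 2.40 for Tbx18, and relative to the fibroblast sum it was 55.5 for Upk3b and 27.7 for Msln.

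**Figure D3:**
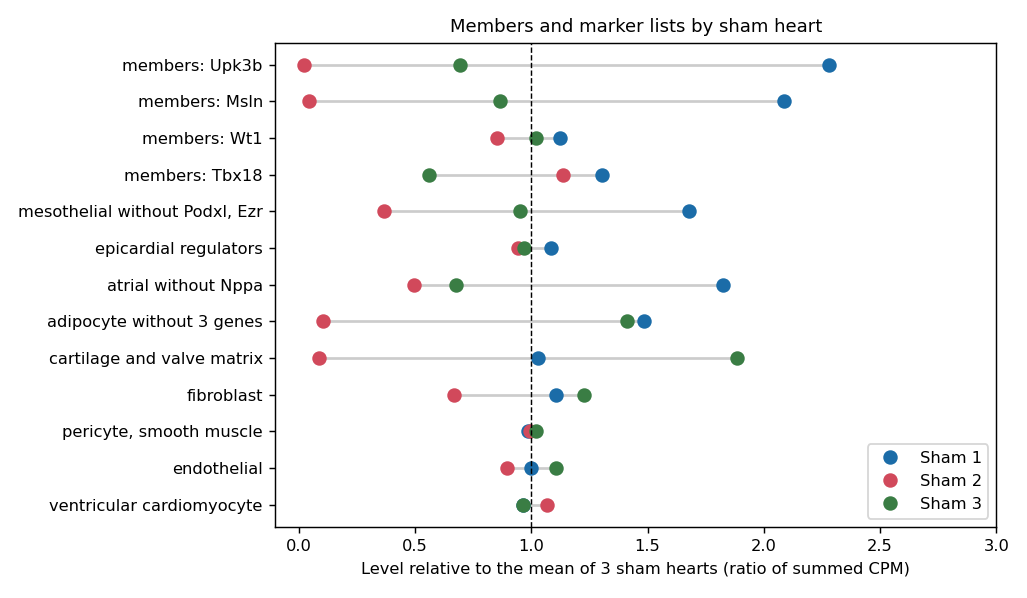
Level of each member and summed level of selected marker lists in the 3 sham hearts, as a ratio to the mean of these hearts (horizontal axis, linear; dashed line at 1). Points are single hearts; Upk3b spans 0.0248 in sham 2 to 2.28 in sham 1 and Wt1 0.854 to 1.13, and the pericyte and smooth muscle sum, which is mostly Des, 0.986 to 1.02. The mesothelial list is drawn without Podxl and Ezr and the adipocyte list without Fabp4, Pparg and Cidea, both trimmed after the values were seen, and the atrial list without Nppa.

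Likeness over the 3 hearts was measured as the Euclidean distance between log2(CPM + 0.5) values centred on their mean, among 10232 genes averaging at least 5 CPM. With only 3 hearts it is a description. Upk3b and Msln lay 0.65 apart, and 4 of the 10232 genes were as close to Upk3b as Msln was. Both were chosen for a wide spread over these same hearts, so their closeness describes the choice and supports nothing further. Msln, at a mean of 2.10 CPM, was itself below the 5 CPM asked of the genes compared. Wt1 and Tbx18 lay 0.88 apart, a distance within which 9896 of 10231 genes lay from Wt1 and 4784 from Tbx18. From Upk3b, Wt1 lay at 2.56, with 1607 of 10232 genes as close or closer, and Tbx18 at 2.92, with 8311.

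The 5 genes most like Upk3b were Cacna2d2, Tmem163, Nppa, Lmntd1 and Sbk3, at distances of 0.22 to 0.68. Of the mesothelial surface list only Pdpn, Podxl and Ezr averaged at least 5 CPM, so its other genes could not be named here. With a minimum of 1 CPM the 5 were Alox8, Cacna2d2, Nppa, Ppp1r1b and Tmem163, which are not on that list either. Cacna2d2, a calcium channel subunit, gave 452, 31 and 202 counts, and Nppa, the atrial natriuretic peptide, gave 12772, 675 and 3186. With log2(CPM + 2), 0 of the first 5 remained among the 5 likest, so their names depend on the pseudocount. The genes most like Msln included Sfrp5, Slc7a7, Myh7 and Egr1, at 0.13 to 0.33. Sfrp5, a secreted Wnt inhibitor, gave 129, 13 and 70 counts. Its 12.3 and 1.24 CPM in sham 1 and 2 differ by a smaller factor than the 4.39 and 0.0955 CPM of Msln. The added 0.5 CPM exceeds the Msln level in sham 2, so these distances depend on it. Other pseudocounts were not tried for Msln. Within 0.5 of the member lay 2 genes for Upk3b, 7 for Msln, 143 for Tbx18 and 8784 for Wt1. The 5 most like Tbx18, led by Dtx3l with 342, 282 and 168 counts, were at 0.12 to 0.13. Those most like Wt1, led by Gtf2f2 with 135, 104 and 149 counts, are 5 of those 8784.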

How the data were processed

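RNA of 6 heart samples from wild-type animals was sequenced, 3 per group. Mouse build mm9 and the tools Trimmomatic (trimming), HISAT2 (alignment), HTSeq (counting) and DESeq are named in the submitters' processing notes, without versions or settings. The authors deposited whole-number read counts for each of 17447 gene symbols, with no normalization. Columns were matched to hearts by name.

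CPM is the count over the column total times 1000000. The sham totals of 10474487 to 12669724 counts set the precision, and 3 counts, the limit a count of 0 allows, are 0.237 to 0.286 CPM. Poisson, Clopper-Pearson and conditional binomial intervals (95%) were computed with scipy 1.17.1 in Python 3.11.15. TMM factors came from edgeR 4.0.16 in R 4.3.3. A heart was called highest or lowest only without ties. No fit of CKD against sham was made, because the CKD row labels did not match their values. The members, lists and tests were chosen with earlier results of these data known. Named were all members, the 5 likest genes per member and up to 6 of the highest genes per list; further list genes were named after their values were seen, and a gene that the rule names is not reported here. Calb2 and Itln1 of the mesothelial list and 4 T-box genes had no row and were not analysed here. Scripts were tested on simulated data. Start regions come from RefSeq (GRCm38.p6) and were found for 2 of 4 members; Msln and Wt1 are named only. Gene coordinates of that build were not joined to the counts.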

Additional observations from a re-analysis of the deposited data

How the results depend on the processing

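No paired analysis was possible because no result comes from a test between groups: the CKD row labels did not match their values, and the sham hearts stand alone. Member levels moved by less than 1 SD with TMM, median-of-ratios factors or a total without the 100 highest genes. Leaving out single hearts gave means of 1.39 to 5.73 CPM for Upk3b, 0.955 to 3.10 for Msln, 4.93 to 5.64 for Wt1 and 4.91 to 7.06 for Tbx18; with 3 hearts such a mean cannot move by more than 1 SD, so this says nothing about stability. The highest-to-lowest ratio then ran from 3.27 to 91.9 for Upk3b, 2.42 to 46.0 for Msln, 1.10 to 1.32 for Wt1 and 1.14 to 2.33 for Tbx18. The low ends for Upk3b and Msln are those without sham 2 and that for Tbx18 is without sham 3. Relative to the fibroblast sum, which was lowest in sham 2, the order turned for Wt1 (1.54) and the ratio of Tbx18 was 3.74. Mesothelial surface genes highest in sham 1 numbered 6 of 9 at 1 CPM or more (37.0% of all such genes) and 15 of 20 without a minimum (37.5%). They numbered 1 at 5 CPM or more, as fewer genes remain. Mesothelial surface genes at least 5-fold lower in sham 2 numbered 10 (4.09% of genes with a sham count), and 4 at 1 CPM or more (0.729% of such genes). Limits of 3-fold and 10-fold gave 12 and 9, for which no share over all genes was taken. With sham 2 counted as at least 3 counts, the mesothelial genes with the 5-fold gap numbered 2 (0.447% of genes with a sham count). The epicardial regulators with it numbered 0 in place of 1 (0.568% of genes at 1 CPM or more). A count of 0 then no longer gives an unlimited gap. These counts and the limits behind them were chosen with the values in view. Of the 5 genes likest Upk3b, 0 were kept with log2(CPM + 2) and 3 with a minimum of 1 CPM. The mean rank correlation of CKD with sham columns was -0.0555, -0.190 over rows with at least 10 counts in a group, and -0.0565 to -0.0542 without single columns; the cause was not tested. Counts of 31 or fewer in a heart limit what can be said of most keratins and of Upk1b.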
